A study of Mus musculus with 2 samples.

Results

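Oligodendrocyte subcluster 2 is 1 of the 4 main subclusters of the oligodendrocytes of the mouse brainstem, and the 1 to which WTs and HETs gave almost equal numbers. Its members were taken by the deposited annotation alone, as the nuclei of the oligodendrocyte cluster that fell in cluster 2 of the clustering at resolution 0.8. This gave 1557 nuclei, 768 of them WT and 789 HET, of 4149 oligodendrocyte nuclei and of 18281 nuclei in all. The WT library came from a wildtype mouse with intact *Scn1a*, the gene of the voltage-gated sodium channel subunit Nav1.1. The HET library came from a mouse with 1 copy of *Scn1a* carrying the loss-of-function missense allele A1783V (*Scn1a* A1783V/WT), used as a model of Dravet Syndrome. This allele was switched on by Sox2-Cre, inherited from the dam and active in the early embryo, so that it is not limited to neurons, and whether the WT mouse carried the transgene is not given in the labels. Both mice were female, on a C57Bl6 background, 41 days old and untreated, and the dissected brainstem was flash-frozen before nuclei were isolated and profiled with the 10x Chromium 3′ platform, which counts RNA molecules by unique molecular identifiers (UMIs).

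Each genotype is a single library, so HETs and WTs could not be tested against each other and no difference has a replicate check. A level is the number of UMIs of a gene summed over the nuclei of a group, per 1000000 UMIs of that group (CPM), and a difference is the log2 ratio of 2 such levels. Intervals in parentheses are exact 95% intervals that cover counting error only. The libraries held 70301390 (WT) and 66176778 (HET) UMIs, of which subcluster 2 held 2717536 and 2869376. The median nucleus of subcluster 2 had 3122.5 UMIs and 1621.5 genes in WTs, and 3360 UMIs and 1645 genes in HETs. No cell barcode of subcluster 2 occurred in both libraries, against 23 barcodes over all nuclei.

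Oligodendrocytes wrap axons in myelin, a stack of membrane rich in cholesterol and galactolipids and held together by proteins such as myelin basic protein (*Mbp*). They arise from *Pdgfra*-expressing precursors, pass through a committed state marked by *Gpr17* and *Bmp4* and a newly formed state usually marked by *Enpp6*, and then build and keep myelin. Mature oligodendrocytes are not uniform. *Klk6* and *Hopx* are known from one mature population, *Ptgds* and *Il33* from another, and *Opalin* and *Mal* are high while myelin is being formed.

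*Klk6*, which encodes a secreted serine protease, and *Opalin*, which encodes a myelin membrane glycoprotein, differed in opposite directions between subcluster 2 and the other oligodendrocytes, and their promoters are shown for that reason. The windows run from 250 bases before to 50 bases after the transcription start that RefSeq gives on GRCm38.p6, the 5′-most of 2 for *Klk6* (chr7:43824294-43824593, plus strand) and the 1 start of *Opalin* (chr19:41077064-41077363, minus strand). Capitals mark ACAAAG and ACAATG, the core letters bound by SOX-family factors, searched on both strands.
Klk6: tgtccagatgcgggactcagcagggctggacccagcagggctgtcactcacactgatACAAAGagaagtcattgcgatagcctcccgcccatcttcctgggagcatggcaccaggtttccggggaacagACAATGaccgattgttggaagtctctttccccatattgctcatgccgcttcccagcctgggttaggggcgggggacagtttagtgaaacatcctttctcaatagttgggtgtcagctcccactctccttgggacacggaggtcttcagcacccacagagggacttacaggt
Opalin: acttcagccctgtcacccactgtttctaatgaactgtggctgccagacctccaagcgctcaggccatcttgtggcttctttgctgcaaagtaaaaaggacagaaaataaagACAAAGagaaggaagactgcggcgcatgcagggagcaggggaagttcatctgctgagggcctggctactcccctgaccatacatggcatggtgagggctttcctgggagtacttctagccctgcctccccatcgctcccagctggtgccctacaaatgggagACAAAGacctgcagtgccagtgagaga
The *Klk6* window held 1 ACAAAG and 1 ACAATG, and the *Opalin* window 2 ACAAAG. Over 32851 RefSeq windows of this length, 18.7% held ACAAAG, 12.6% held ACAATG and 28.6% held at least 1 of them, so these matches are common and describe the sequence only. Of 4 further windows searched, those of *Il33*, *Hopx* and *Art3* held no match and that of *Hmcn1* held 1 ACAATG.

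Among oligodendrocyte nuclei the share of subcluster 2 was 43.5% (41.1 to 45.8) for WTs and 33.1% (31.2 to 35.1) for HETs. Among all nuclei the share was 8.29% (7.74 to 8.88) for WTs and 8.75% (8.17 to 9.35) for HETs. The share of oligodendrocyte nuclei was thus lower in the HET library while the share of all nuclei was not. The other subclusters were divided unevenly: subcluster 8 held 825 WT and 35 HET nuclei, subcluster 6 held 39 and 827, and subcluster 7 held 133 and 730. The nuclei outside subcluster 2 were therefore mostly those of subcluster 8 in the WT library, and of subclusters 6 and 7 in the HET library. Fewer nuclei of a type in the tissue and fewer recovered nuclei cannot be told apart.

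**Figure D1:**
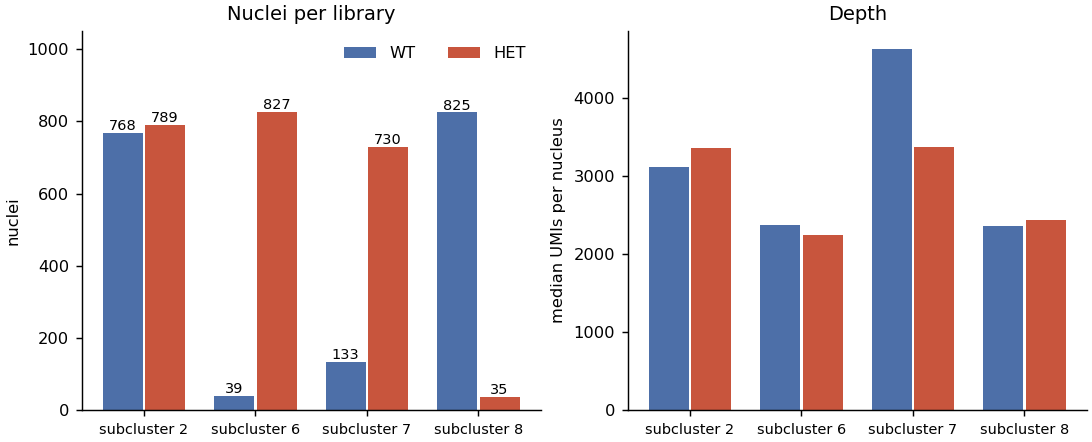
Number of nuclei (left) and median UMIs per nucleus (right) of the 4 oligodendrocyte subclusters in the WT and HET library; bars are single libraries. Subcluster 2 holds 768 WT and 789 HET nuclei, whereas subclusters 6, 7 and 8 come mostly from 1 library.

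Subcluster 2 carried the markers of its label. *Mog*, a surface protein of mature myelin, had 2577 UMIs (948 CPM) in WTs and 2631 UMIs (917 CPM) in HETs. *Mag*, an adhesion protein of the inner myelin membrane, had 2959 UMIs in either library (1089 and 1031 CPM). A UMI of *Mog* was found in 93.8% of WT and 93.8% of HET nuclei of subcluster 2, at median depths of 3122 and 3360 UMIs. The shares were 19.2% and 18.8% in the largest neuron cluster (neuron.1), at 7752 and 8509 UMIs, where the part of free RNA was not tested. With every nucleus thinned to 1000 UMIs, below which no nucleus of subcluster 2 fell, these shares were 61.8% and 59.5% against 3.13% and 2.66%. The authors also deposited a label for each nucleus taken from a reference data set, which called 766 of 768 WT and 789 of 789 HET members oligodendrocytes.

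Markers of other cell types were low in sum beside the 15 oligodendrocyte markers (20674 CPM in WTs and 24049 CPM in HETs), and highest for neurons. Schwann cell markers, the cells that make myelin outside the brain, summed to 4.05 CPM in the WT and 4.18 CPM in the HET nuclei of subcluster 2, and 1 of the 5 was at 0 in both. The 11 neuron markers summed to 1281 and 1710 CPM, below the other oligodendrocyte nuclei (1669 and 2059 CPM), and none was at 0. The 10 astrocyte markers summed to 299 and 371 CPM against 344 and 316 CPM, and the 9 microglia markers to 195.03 and 116 CPM against 214 and 127 CPM.

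At other settings of the clustering subcluster 2 stayed together or broke up. In the coarser clustering, at resolution 0.3, 1555 of the 1642 nuclei of 1 cluster (94.7%) were members. In the clustering made without SCTransform, the authors' count normalization, the members were spread over 5 clusters, each of which held other oligodendrocytes too. The boundary of subcluster 2 is thus that of 1 way of processing.

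The maturation state of subcluster 2 was then set against the other oligodendrocyte nuclei, within each library. The clusters were made from these genes, so the values describe the subcluster and test nothing. Of the 15 oligodendrocyte markers 5 were higher and 7 lower in both libraries, 0 and 1 of them by at least 2-fold, with medians of −0.09 (WT) and 0.01 (HET). Over all 12460 genes with at least 20 UMIs, 31.5% were higher and 38.5% lower in both libraries, and the counts of each list stand beside these shares. *Mog* had a log2 ratio of −0.11 within WTs and 0.12 within HETs, *Mag* −0.07 and −0.06, and *Mbp* 0.19 and 0.26. *Cldn11*, the tight junction protein of myelin, was lower (−0.49 and −0.45).

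*Klk6* stood at 167 CPM in the WT and 123 CPM in the HET nuclei of subcluster 2. In the other subclusters with at least 100 nuclei it stood at 26.4 CPM (7, WT), 21.4 CPM (7, HET), 40.2 CPM (8, WT) and 27.6 CPM (6, HET), all below either value of subcluster 2. The log2 ratio to the other oligodendrocytes was 2.21 (1.91 to 2.52) within WTs and 2.36 (2.05 to 2.67) within HETs. A *Klk6* UMI was found in 41.5% and 32.2% of members, 10.4% and 7.09% of other oligodendrocytes and 6.28% and 5.66% of neurons. Thinned to 1000 UMIs these shares were 15.7% and 11.1%, 3.76% and 2.41%, and 0.871% and 0.755%.

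*Hopx*, a homeodomain-only protein, was at 33.1 CPM in the WT and 12.2 CPM in the HET members, and *Hopx* levels were between 4.67 and 6.62 CPM in subclusters 6 (HET), 7 and 8 (WT). *Slc5a11*, a sodium-coupled inositol transporter, was higher in subcluster 2 by a log2 ratio of 2.59 within WTs and 2.71 within HETs, and *Anxa5*, a phosphatidylserine-binding annexin, by 1.13 and 1.58. *Selenop*, a selenium carrier, had ratios of 0.86 and 1.17, *Trf*, the iron carrier transferrin, 0.35 and 0.43, and *Apod*, a lipid-binding lipocalin, 0.24 and 0.72.

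Other genes of late mature oligodendrocytes were lower. *Il33*, an interleukin released from damaged cells, was at 41.2 CPM in the WT and 17.4 CPM in the HET members, against 275 to 425 CPM in subclusters 6 (HET), 7 and 8 (WT), with log2 ratios of −3.35 and −4.06. *Ptgds*, the prostaglandin D2 synthase, was at 1731 and 812 CPM, against 2113 to 4782 CPM, with ratios of −1.31 and −1.56. The metabotropic glutamate receptor gene *Grm3* (−1.09 and −0.98), the dihydropteridine reductase gene *Qdpr* (−1.13 and −1.23) and the junctophilin gene *Jph4* (−1.06 and −1.40) were also lower in both libraries. Of the 14 late mature markers, 7 were thus higher and 7 lower in both libraries, 4 and 4 of them by at least 2-fold, and the median of the list (−0.06 in the WT, 0.21 in the HET library) changed sign between libraries.

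Genes that are high while myelin is being built were lower in subcluster 2. *Opalin* was at 58.9 CPM in the WT and 34.9 CPM in the HET members, against 478 CPM (7, WT), 346 CPM (7, HET), 384 CPM (8, WT) and 302 CPM (6, HET). The log2 ratio was −2.80 (−3.04 to −2.56) within WTs and −3.24 (−3.54 to −2.95) within HETs. An *Opalin* UMI was found in 15.8% and 10.6% of members against 59.0% and 54.4% of other oligodendrocytes, and in 10.9% and 7.09% of the deeper neurons. Thinned to 1000 UMIs these shares were 5.65% and 3.47%, 31.2% and 26.7%, and 1.66% and 0.919%. *Mal*, a proteolipid that carries myelin cargo, had ratios of −0.92 and −1.03, the serine incorporator gene *Serinc5* −1.38 and −1.52, and the CTP synthase gene *Ctps* −1.46 and −1.69. Of the 6 myelin-forming markers, some of which are also on the oligodendrocyte list, 4 were lower and 0 higher in both libraries.

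Genes of the early stages were mostly lower than in the other oligodendrocytes, and 1 was an exception, higher in both libraries. *Pdgfra* was at 8.83 CPM in the WT and 5.92 CPM in the HET members, *Gpr17* at 2.94 and 3.14 CPM, and *Bmp4* at 0.37 and 1.39 CPM. Of the 9 precursor markers 8 were lower and 0 higher in both libraries; *Tnr*, which encodes the matrix protein tenascin-R, had the ratios −1.38 and −2.26. Of the 9 measured committed and newly formed markers 8 were lower in both libraries, among them the transcription factor gene *Tcf7l2* (−1.16 and −1.67) and *Bcas1* (−0.45 and −0.60). Part of this came from subcluster 7: *Gpr17* was at 13.2 CPM (WT) and 17.0 CPM (HET) there, but at 2.84 CPM in subcluster 8 (WT) and 5.201 CPM in subcluster 6 (HET), closer to its level in subcluster 2. The exception was *Enpp6*, a choline-specific phosphodiesterase gene.

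*Enpp6* was at 436 CPM in the WT and 469 CPM in the HET members, and between 72.9 and 118 CPM in subclusters 6 (HET), 7 and 8 (WT). Its log2 ratio was 2.33 within WTs and 2.43 within HETs. An *Enpp6* UMI was found in 70.1% and 77.4% of members, against 17.3% and 16.5% of other oligodendrocytes and 3.50% and 4.44% of neurons. The usual marker of newly formed cells was thus high in the same nuclei group as *Klk6*, unlike the 8 other measured genes of its list.

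**Figure D2:**
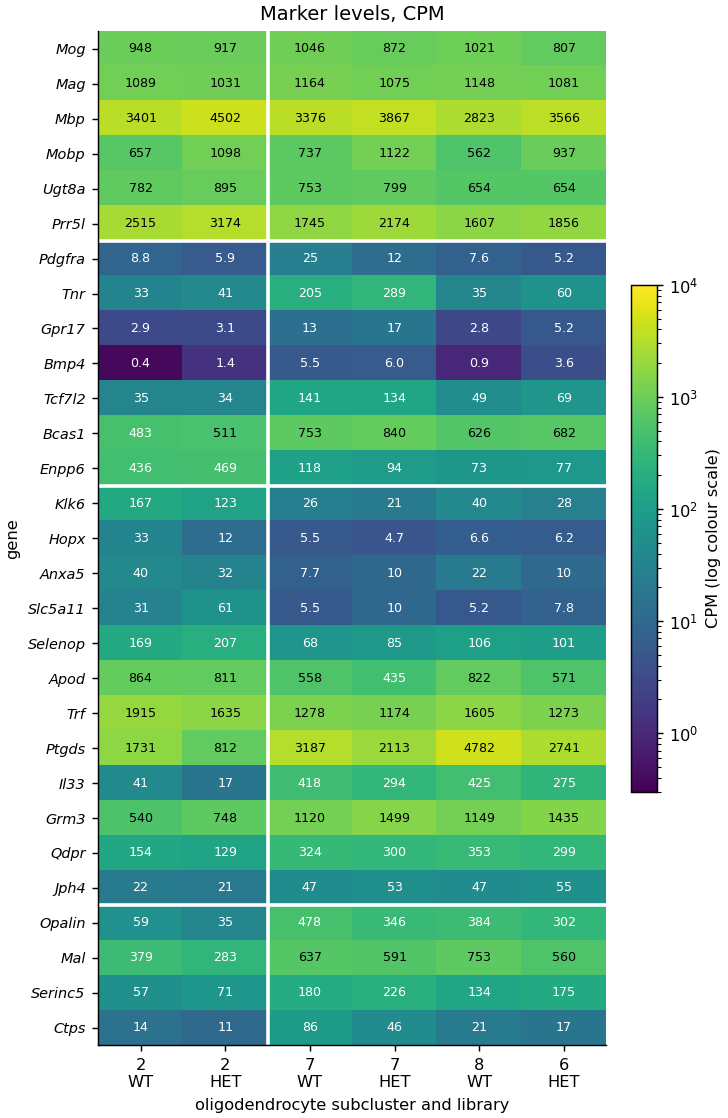
Level in CPM (numbers and log colour scale) of marker genes in oligodendrocyte subclusters 2, 7, 8 and 6, each in the libraries with at least 100 nuclei; white lines separate subcluster 2 from the rest, and shared mature, early, late mature and myelin-forming genes. *Klk6* and *Enpp6* are highest and *Opalin* and *Il33* lowest in the 2 columns of subcluster 2, whereas *Mog* and *Mag* differ little.

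Over all 7437 genes with at least 100 UMIs in the oligodendrocyte nuclei of each library, the median log2 ratio of subcluster 2 to the rest was −0.03 within WTs and −0.01 within HETs. The ratio was at least 2-fold higher in both libraries for 194 genes (2.61%) and at least 2-fold lower in both for 184 genes (2.47%). In each library alone 488 genes lay past 2-fold, and 0 lay past it in opposite directions. The sets compared in the WT and HET libraries share no nuclei, but the clustering that drew the border was made over both.

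Subcluster 2 also stood further from its neighbours than these stood from each other in the HET library. Past 2-fold, with 0.5 counts added to every gene, lay 6.87% of 8401 genes between subclusters 2 and 6 and 7.36% between 2 and 7, but 1.14% between 6 and 7. In the WT library 9.17% of 7602 genes lay past 2-fold between 2 and 7, 6.87% between 2 and 8, and 6.99% between 7 and 8, where subcluster 7 had 133 nuclei.

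Of the 10 genes with the largest ratios 5 were protein coding. *Hmcn1* (chromosome 1, 150562524 to 150993435, minus strand), which encodes the extracellular matrix protein hemicentin-1, was at 149 CPM in the WT and 85.7 CPM in the HET members, against 5.76 and 2.99 CPM in the rest. These UMIs came from few nuclei. *Hmcn1* had 404 UMIs in 56 of 768 WT members, 49.0% of them in 10 nuclei, and 246 UMIs in 33 of 789 HET members, 59.8% of them in 10 nuclei. *Gm20631*, annotated as an antisense gene inside *Hmcn1*, was found in 46 and 32 members, with 251 and 172 UMIs against 8 and 3 UMIs in the rest (log2 ratios 5.17 and 6.65, the latter with an interval of 5.08 to 8.94). Since the strand setting of the counting is not given, reads of *Gm20631* and of *Hmcn1* cannot be told apart.

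*Lmo7*, an actin-binding LIM domain protein, was at 95.7 CPM in the WT and 105 CPM in the HET members against 4.80 and 3.99 CPM in the rest. *Dlc1*, a GTPase-activating protein, was at 375 and 451 CPM against 41.3 and 37.3 CPM. Its UMIs were found in 38.3% and 47.7% of members and 4.80% and 6.97% of other oligodendrocytes, but also in 68.0% and 73.4% of neurons, where thinned shares were 16.6% and 17.4% against 21.3% and 26.0% in members. *Bace2*, a relative of the beta-secretase, was at 57.8 and 48.8 CPM against 2.88 and 3.39 CPM, and *Art3*, an ADP-ribosyltransferase, at 105 and 69.7 CPM against 5.44 and 2.19 CPM.

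The remaining genes among these 10 were noncoding: *Gm32122* (277 and 177 CPM against 7.04 and 6.58), its neighbour on chromosome 8 *Gm32005* (34.2 and 39.4 CPM against 3.84 and 4.58), *6030407O03Rik* (log2 ratios 4.18 and 5.32) and *Gm16193* (4.46 and 4.55), the last annotated as antisense to *Mtus1*. *Gm32122* was found in 217 WT and 188 HET members, so that its level, unlike that of *Hmcn1*, was not set by a few nuclei.

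Among the 10 genes with the smallest ratios, *Synpr*, a synaptic vesicle protein, was at 14.7 CPM in the WT and 12.2 CPM in the HET members, against 227 and 283 CPM in the rest. *C030029H02Rik*, a noncoding gene on chromosome 7, was at 42.7 and 26.1 CPM against 536 and 409 CPM. The transporter genes *Slc7a15* (−4.52 and −4.38) and *Slc13a1* (−4.20 and −5.10, a sulfate transporter), the agrin receptor gene *Lrp4* (−3.88 and −4.38), *Rasal1* (−3.85 and −4.69), which encodes a Ras GTPase-activating protein, and the fibrillin gene *Fbn2* (−3.75 and −4.27) were lower as well. The list ended with *9630013A20Rik* (−5.02 and −5.38), annotated as antisense to *Pcdh17*, which stood at 818 and 290 CPM in subcluster 7 but at 18.0 CPM in subcluster 8 (WT) and 36.4 CPM in subcluster 6 (HET), against 7.73 and 4.53 CPM in members. It also held *Clca4a*, with 3 and 4 UMIs in members (−4.90, −7.20 to −3.31, and −4.44, −6.34 to −3.06), and *Gm5087*, a noncoding neighbour of *Synpr* with 1 and 4 UMIs in members (−7.26, −12.57 to −4.76, and −5.01, −6.90 to −3.64).

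**Figure D3:**
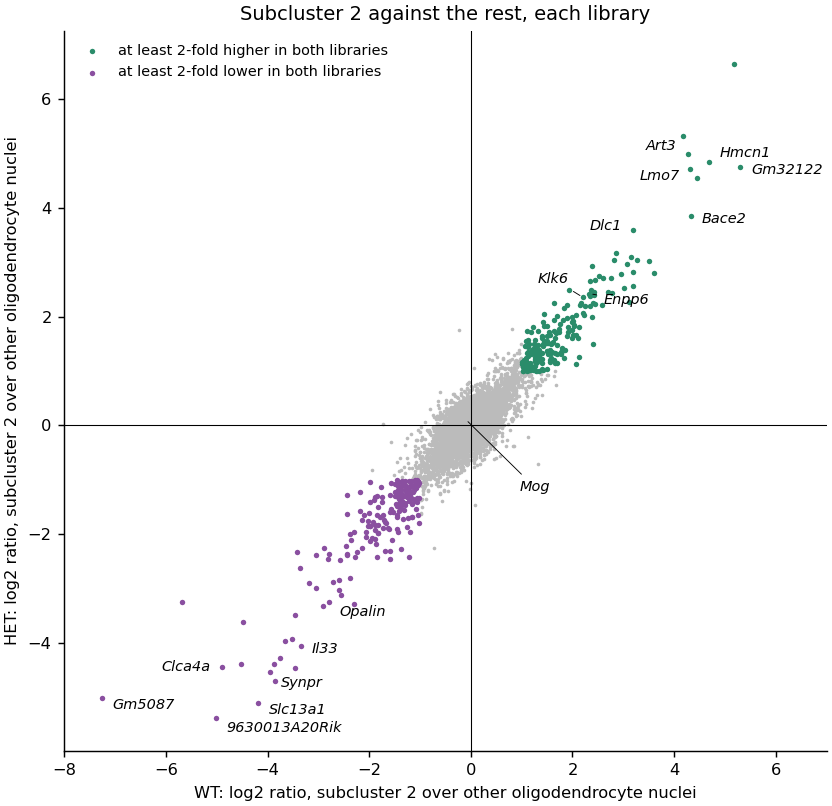
Log2 ratio of CPM, subcluster 2 over the other oligodendrocyte nuclei, in the WT (x axis) and HET library (y axis); each point is 1 of 7437 genes, and colours mark the 194 genes at least 2-fold higher and the 184 at least 2-fold lower in both. Large ratios lie along the diagonal, and *Mog* lies near 0.

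Groups of genes with a known role in myelin were read the same way, beside the same shares of all genes. Of the 19 myelin proteins, 6 were higher and 11 lower in both libraries, and 3 were at least 2-fold lower, with list medians of −0.34 within WTs and −0.31 within HETs. The tetraspanin genes *Tspan2* (−1.07 and −1.13) and *Cd9* (−1.25 and −1.87) were lower together with *Opalin*. The connexin gene *Gjb1* (0.79 and 0.73) and *Prr5l*, of the oligodendrocyte markers (0.60 and 0.64), were higher.

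Cholesterol is the main lipid that oligodendrocytes make for myelin. Of 23 genes of its synthesis, 15 were higher and 2 lower in subcluster 2 in both libraries, none by 2-fold in both, with medians of 0.13 within WTs and 0.29 within HETs. *Hmgcs1*, the synthase at the entry of the pathway, had ratios of 0.34 and 0.78. Among myelin lipid genes the acetyl-CoA carboxylase gene *Acaca* (0.65 and 0.83) and the sulfatide-forming sulfotransferase gene *Gal3st1* (0.59 and 0.59) were higher, and 8 of 18 were higher and 7 lower in both.

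Glutamate receptor and transport genes were mostly lower, 25 of 31 in both libraries against 3 higher, with medians of −0.53 within WTs and −0.36 within HETs. *Grm7*, a metabotropic receptor gene, was at 572 and 534 CPM against 2031 and 2102 CPM, and *Slc38a2*, a glutamine transporter gene, had ratios of −1.21 and −1.19. Neuron markers moved with this list, 9 of 10 measured being lower in both libraries with medians of −0.37 and −0.34, and their part in it was not tested. The kainate receptor gene *Grik1* was the opposite, at 253 and 332 CPM against 76.1 and 96.4 CPM. Of the 21 ion channel and pump genes 16 were lower and 3 higher in both, among the first the potassium channel gene *Kcna1* (−1.41 and −1.35), but the sum over the list was higher in subcluster 2, at 8708 and 9297 CPM against 7480 and 8190 CPM. *Scn1a* had ratios of −0.30 and −0.29.

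Of the 15 genes of axon-glia contact 10 were lower and 5 higher in both libraries. *Anln*, an actin-binding protein of the myelin septin filaments, had ratios of 1.66 and 1.61, and *Bin1*, a membrane-bending protein, −1.18 and −1.10. Of 43 measured ErbB signalling genes 24 were lower and 14 higher in both. *Erbb4*, the neuregulin receptor gene, was at 512 and 519 CPM against 1899 and 2216 CPM, and *Nck2*, an adaptor gene, was higher by 1.65 and 1.34. Among 20 measured genes of mucin-type O-glycan synthesis 8 were higher and 8 lower, with *Galnt12* (2.81 and 3.03) and *Galnt3* (2.82 and 2.22), both N-acetylgalactosaminyltransferases, at one end and the sialyltransferase gene *St3gal1* (−1.59 and −2.32) at the other.

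Transcription factors of the lineage were lower in 12 of 17 and higher in 2, with medians of −0.46 within WTs and −0.51 within HETs. *Olig1* had ratios of −0.89 and −1.05 and *Olig2* −0.99 and −1.37. Of *Sox10* and *Myrf*, the factors that hold the myelin program, *Sox10* (−0.19 and 0.09) was closer to 0. *Myrf* (−0.10 and −0.61) was closer to 0 within WTs but below the list median within HETs. Ribosomal protein genes were lower in 69 of 79 and higher in 0, with medians of −0.31 and −0.17, and oxidative phosphorylation genes lower in 66 of 78 and higher in 3, with medians of −0.26 and −0.19. Against subcluster 7 the sums ran the other way: ribosomal genes summed to 7594 and 4514 CPM in members and 5327 and 4178 CPM in subcluster 7, and oxidative phosphorylation genes to 5462 and 3439 CPM and 3872 and 3280 CPM. The lower sums were thus against subcluster 8 (WT) and subcluster 6 (HET). Members had more UMIs than the other oligodendrocytes, whose medians were 2495 (WT) and 2649 (HET), and the part of depth in these ratios was not tested beyond the thinned values given with the limits.

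A finer clustering, at resolution 1.5, divided all but 1 member among 3 clusters, here called finer clusters 8, 10 and 11. The libraries filled them unequally. Finer cluster 8 held 150 WT (19.5%, 16.8 to 22.5) and 282 HET members (35.7%, 32.4 to 39.2), finer cluster 10 held 362 (47.1%) and 167 (21.2%), and finer cluster 11 held 255 (33.2%) and 340 (43.1%). Depth differed too, with medians of 2373.5 and 2377 UMIs in finer cluster 10 and 4310 and 3971 UMIs in finer cluster 11. Finer cluster 8 crossed the border of subcluster 2, since members made up 150 of its 180 WT and 282 of its 567 HET nuclei. In finer cluster 10 they made up 362 of 429 and 167 of 180, and finer cluster 11 held members only.

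The genes that set subcluster 2 apart were graded over these clusters. *Hmcn1* had 2 UMIs (WT) and 3 UMIs (HET) in finer cluster 8, and was at 44.7 and 9.88 CPM in 10 and at 301 and 163 CPM in 11. *Dlc1* was at 45.3 and 150 CPM, 276 and 156 CPM, and 619 and 738 CPM in the same order. *Grm7* ran the other way, with 1644 and 966 CPM in finer cluster 8, 348 and 573 CPM in 10, and 187 and 227 CPM in 11. *Opalin* was at 112 and 45.01 CPM in finer cluster 8, 61.5 and 61.7 CPM in 10, and 29.9 and 20.5 CPM in 11, so that in HETs it was highest in finer cluster 10.

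Other genes varied over a narrower range. In all 6 combinations of finer cluster and library *Mog* lay between 872 and 1013 CPM, *Enpp6* between 370 and 518 CPM and *Klk6* between 96.0 and 188 CPM. *Klk6* was nevertheless higher in finer cluster 11 than in 8, at 188 against 112 CPM (WT) and 147 against 96.0 CPM (HET). *Enpp6* was too, at 518 against 372 CPM (WT) and 513 against 426 CPM (HET). These are again genes from which clusters were made. *Piezo2*, a mechanosensitive channel gene, and *Scel*, of the cornified envelope protein sciellin, are drawn beside them and were chosen after their values were seen.

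**Figure D4:**
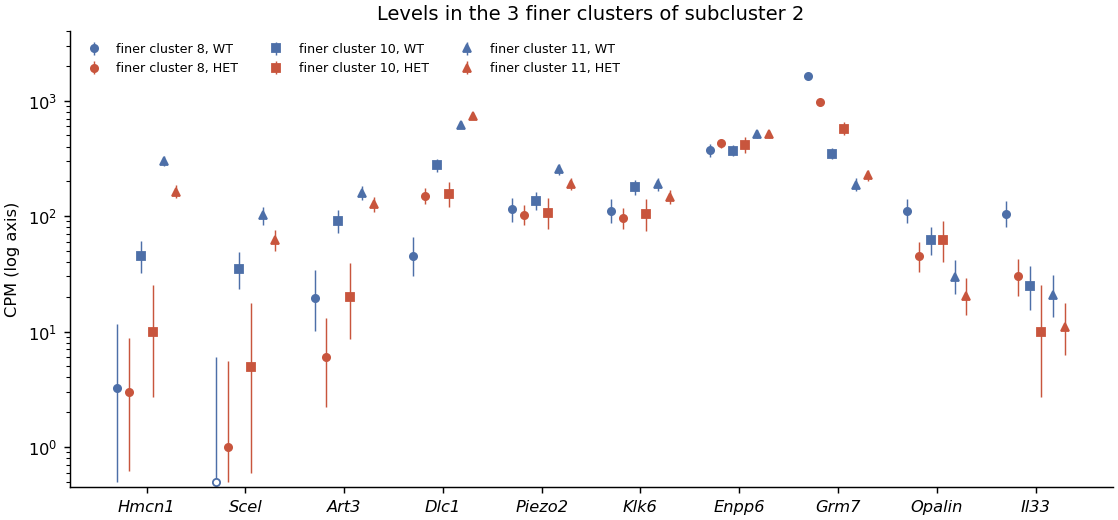
Level in CPM (log axis) of 10 genes in the 3 finer clusters of subcluster 2, with 1 point per finer cluster (symbol) and library (colour) and exact Poisson intervals; an open symbol at the foot of the axis stands for 0 UMIs, and intervals are cut there. *Hmcn1*, *Scel* and *Dlc1* are highest in finer cluster 11 and *Grm7* in finer cluster 8, while *Enpp6* stays between 370 and 518 CPM.

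The HET and WT members were then compared. The study asked mainly about brain metabolism at baseline and explored the brainstem transcriptome in a preliminary way. *Scn1a* itself had 183 UMIs (67.3 CPM) in the WT and 185 UMIs (64.5 CPM) in the HET members, a log2 ratio HET over WT of −0.06 (−0.37 to 0.24). The allele is a missense change, so the level of its RNA does not check the genotype. Over 12462 genes with at least 20 UMIs the median ratio was −0.08, and 42.2% had a ratio above 0. Of 7169 genes with at least 100 UMIs, 82 (1.14%) were at least 2-fold higher and 135 (1.88%) at least 2-fold lower in the HET members.

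Myelin genes differed little as a group. Of 19 myelin protein genes 8 were higher and 11 lower in the HET members, against 42.2% of all genes higher, and the median was −0.05, beside −0.08 over all genes. Centring on the median gene, which shifts all genes alike, put the list at 0.03. *Mobp*, a basic protein of myelin, had 1786 UMIs (657 CPM) in the WT and 3150 UMIs (1098 CPM) in the HET members (0.74, 0.66 to 0.82). *Mbp* (3401 and 4502 CPM, 0.40) and *Cldn11* (214 and 283 CPM, 0.40), were higher too. *Cd9* was the 1 member lower by at least 2-fold, at 85.4 and 39.0 CPM (−1.13), and *Opalin* (−0.76) and *Mal* (−0.42) were lower.

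Of 23 genes of cholesterol synthesis 17 were higher in the HET members, with a median of 0.29. *Hmgcs1* was at 102 CPM in the WT and 161 CPM in the HET members (0.66, 0.44 to 0.88), the isomerase gene *Idi1* at 36.1 and 60.6 CPM (0.75) and the sterol dehydrogenase gene *Nsdhl* at 38.3 and 59.2 CPM (0.63), while *Fdps*, the farnesyl diphosphate synthase, was lower (−0.72). The same median was 0.11 in subcluster 7 and 0.13 in subclusters 6 and 8 combined. Inside finer clusters 8, 10 and 11, which the libraries filled unequally, it was 0.41, 0.14 and 0.16. Under the alternatives run it lay between 0.16 and 0.37. The acetyl-CoA synthetase gene *Acss2*, which the study lists as raised over all nuclei, was at 147 and 282 CPM (0.94), and the desaturase gene *Scd1* at 15.8 and 28.9 CPM (0.87), whereas the median of the 18 myelin lipid genes was −0.04.

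Glutamate receptor and transport genes were higher in 26 of 31, with a median of 0.34. *Grm3* was at 540 CPM in the WT and 748 CPM in the HET members (0.47), *Grin2b*, an NMDA receptor subunit gene, at 21.0 and 41.1 CPM (0.97), and *Shank1*, a postsynaptic scaffold gene, at 6.99 and 27.5 CPM (1.98), while *Slc38a2* was lower (−0.64). Neuron markers moved with this list: 7 of 11 were higher, their sum was 1281 CPM in the WT and 1710 CPM in the HET members, *Rbfox3* had a ratio of 1.21 and *Meg3* of 0.52, and none was at 0. In finer clusters 8, 10 and 11 the medians were 0.13, 0.46 and 0.26 for the glutamate list and −0.14, 0.43 and 0.31 for the neuron markers. The part of neuronal RNA in the glutamate list was not tested. Median ratios of the list were 0.18 in subcluster 7 and 0.40 in subclusters 6 and 8.

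Lineage transcription factors were lower in 12 of 16, with a median of −0.32. *Sox8* was at 111 CPM in the WT and 59.9 CPM in the HET members (−0.89), *Olig1* at 53.0 and 28.9 CPM (−0.87), *Myrf* at 140 and 93.7 CPM (−0.58) and *Sox10* at 282 and 212 CPM (−0.42). *Olig2* (0.35), the highest of the list, and *Zfp536*, a zinc finger gene (0.24), were higher. The same median was −0.07 in subcluster 7 and −0.39 in subclusters 6 and 8.

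Late mature markers were lower in 9 and higher in 5 of 14, near the 42.2% of all genes that were higher, with a median of −0.18. Single members differed in both directions. *Hopx* had 90 UMIs in 74 WT nuclei and 35 UMIs in 33 HET nuclei (33.1 and 12.2 CPM, −1.44). *Klk6* was at 167 and 123 CPM (−0.44), *Ptgds* at 1731 and 812 CPM (−1.09) and *Il33* at 41.2 and 17.4 CPM (−1.24), while *Slc5a11* was higher, at 30.9 and 61.3 CPM (0.99). *Enpp6* had a ratio of 0.11 (−0.01 to 0.22).

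Ribosomal protein genes, which encode the protein shell of the ribosome, were lower in 77 of 79, with a median of −0.73. Of these 79, 13 were lower by at least 2-fold and 74 had intervals below 0. Beside the first count stands 1.88% of all genes with at least 100 UMIs, a higher minimum than the 20 UMIs of the lists. The share of all genes with an interval below 0 was not counted. Both limits hold for the lists that follow too. The sum over the list was 7594 CPM in the WT and 4514 CPM in the HET members. *Rps16* had 319 and 128 UMIs, or 117 and 44.6 CPM (−1.40). The same median was −0.35 in subcluster 7, −0.81 in subclusters 6 and 8 and −0.81 in the largest neuron cluster. The authors' own percent of ribosomal protein UMIs per nucleus had medians of 0.913% in the WT and 0.531% in the HET members.

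Oxidative phosphorylation genes, of the mitochondrial respiratory chain, were lower in 76 of 78, with a median of −0.68, 62 intervals below 0 and 10 genes lower by at least 2-fold. *Cox4i1*, of cytochrome c oxidase, had 827 UMIs (304 CPM) in the WT and 450 UMIs (157 CPM) in the HET members (−0.96), and *Ndufb5*, of complex I, had a ratio of −1.35. The percent of mitochondrial UMIs ran the other way, with medians of 0.599% and 0.754%. Inside the 3 finer clusters the ribosomal medians were −0.59, −0.63 and −0.64 and the oxidative phosphorylation medians −0.50, −0.66 and −0.60, beside −0.06, −0.09 and −0.10 over all genes.

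Gene length moved with these lists. Over genes under 5 kb (1198) the median ratio was −0.47, over those of 5 to 20 kb −0.23, of 20 to 100 kb −0.08 and over 100 kb (2096) 0.13, where a length could be found for 98.8% of genes. The ribosomal protein genes under 5 kb (62) had a median of −0.74 and the oxidative phosphorylation genes under 5 kb (24) one of −0.71, both below that of all genes of this length. The part of gene length, library quality and free RNA in the 2 lists was not tested. Nor was it tested for the other lists and single genes compared between HETs and WTs, to which the same trend with length applies.

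Of 14 heat shock and ubiquitin genes 12 were lower, with a median of −0.58, among them the chaperone gene *Hspa8* (198 and 121 CPM, −0.71) and *Ubb*, a ubiquitin gene (225 and 118 CPM, −0.93). Of 23 redox genes 17 were lower, with a median of −0.32, though the sum over the list was 1480 CPM in the WT and 1526 CPM in the HET members (0.04, −0.02 to 0.11). The superoxide dismutase gene *Sod1* had a ratio of −1.08, whereas the glutathione synthetase gene *Gss* was higher (0.85). Of the 7 measured genes known from reactive oligodendrocytes 7 had a ratio below 0, with a median of −0.82, but 2 had intervals below 0. The 4 measured immediate early genes had a median of −0.82, with 2 intervals below 0.

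In other lists the median lay near that of all genes. It was 0.10 for 15 genes of axon-glia contact, where *Bin1* (0.50), *Nfasc* (0.36) and *Anln* (0.33) were higher, and −0.00 for 21 channels and pumps, with *Clcn2* at −0.88. It was −0.02 for 40 ErbB signalling genes, with 19 higher, 0.13 for 20 genes of mucin-type O-glycan synthesis, with 12 higher, and −0.18 for 18 of monocarboxylate and glucose use. The sums of the first 2 lists were higher in the HET members. They were 4407 and 4758 CPM for ErbB signalling (0.11, 0.08 to 0.15) and 914 and 1085 CPM for O-glycan synthesis (0.25, 0.17 to 0.32). The study reports ErbB and glycan biosynthesis genes as raised in its oligodendrocyte and astrocyte clusters. In its cluster of oligodendrocytes and their precursors it also reports glutamatergic genes as raised, and ribosomal and oxidative phosphorylation genes as lowered. Those results are pathway enrichments among differing genes of these same libraries, over wider sets of nuclei. They are thus another measure than the medians and sums given here. Of the 21 genes that the study names as raised over all nuclei 21 were higher in subcluster 2 (median 0.48), and of the 34 it names as lowered 33 were lower (median −0.80), but the study chose both lists on these libraries, so that they are no independent evidence of direction. *Ubb* is named by the study in both directions and was left out of both lists.

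The genes with the largest ratios were led by *Gm20069*, annotated as antisense to *Itpk1*, with 17 UMIs in WTs and 96 in HETs (2.42, 1.67 to 3.26). Its ratio was 1.72 in the largest neuron cluster and 2.57 in astrocytes, the latter from 3 and 22 UMIs. *Sgk1*, a kinase induced by glucocorticoids, had 40 and 198 UMIs in 40 and 159 nuclei, 14.7 and 69.0 CPM (2.23, 1.73 to 2.76). Its ratio was 1.93 in subcluster 7, 2.33 in subclusters 6 and 8 and 0.24 in the largest neuron cluster. *Zbtb16*, a zinc finger factor, had 70 and 254 UMIs, 25.8 and 88.5 CPM (1.78), with 1.89 in subcluster 7 and 1.81 in subclusters 6 and 8. Both genes were thus higher in the HET library in each of these oligodendrocyte groups, but also in astrocytes, where *Sgk1* had 1.33 and *Zbtb16* 2.11, and *Zbtb16* had 0.87 in the largest neuron cluster.

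*Hist1h1e*, a linker histone gene, had 28 and 117 UMIs (1.98), and it overlaps *Hist1h2be* on the same strand, so that the counts of these genes are uncertain. *Gm21698* (2.31) and *Gm7347* (2.06) are neighbouring members of 1 gene family on chromosome 5, between which reads may be shared. The rest of the 10 were the antisense genes *Cdiptos* (1.95) and *Macrod2os1* (1.92), and *4930500A05Rik* (1.93) and *Gm15398* (1.74). *Hist1h1e* had ratios of 1.95 in the largest neuron cluster and 1.67 in astrocytes. The other ranked genes of this paragraph were also higher in both, though some had few UMIs in astrocytes. Antisense reads cannot be told from those of the partner gene where the strand setting is not given.

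At the lower end stood *Ttr*, the thyroxine carrier of the choroid plexus, with 1817 UMIs (669 CPM) in the WT and 240 UMIs (83.6 CPM) in the HET members (−2.999, −3.20 to −2.80). It was found in 661 of 768 WT and 193 of 789 HET members. Its ratio was −3.02 in the largest neuron cluster and −3.15 in astrocytes, and the second ependymal cluster held it at 16769 and 9407 CPM, so that *Ttr* was lower by like amounts in cells that are not known to make it. *C1qa*, a complement gene of microglia, had 125 and 40 UMIs (−1.72), beside 586 and 446 CPM in nuclei that both deposited labels call microglia. Its ratio was −1.60 in the largest neuron cluster, −2.09 in astrocytes, −1.14 in subcluster 7 and −1.37 in subclusters 6 and 8. The summed microglia markers were also lower, 195.03 and 116 CPM, with 5 of 7 measured markers lower.

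*C4b*, a complement gene known from reactive oligodendrocytes, had 81 UMIs in 42 WT members, 51.9% of them in 10 nuclei, and 23 UMIs in 17 HET members (−1.89, −2.63 to −1.21). Its ratio was 0.38 (−0.84 to 1.81) in subcluster 7 and −0.87 in subclusters 6 and 8, and −1.07 in astrocytes, and reads may be shared with its paralog *C4a*. *Hopx* was also among these 10, with ratios of −0.24 (−1.79 to 1.59) in subcluster 7 and 0.03 (−1.18 to 1.23) in subclusters 6 and 8, from 5 and 14 and from 14 and 13 UMIs. In astrocytes its ratio was −1.46 (−2.02 to −0.92) and in the largest neuron cluster −0.83 (−1.18 to −0.48). The others were *Tmem256* (−1.53), *Krtcap2* (−1.52), of the oligosaccharyltransferase, *Gm28875* (−1.49), *Qrsl1* (−1.46), a mitochondrial amidotransferase gene, *Gm19951* (−1.44) and *Tmem60* (−1.41). Each of these was also lower in the largest neuron cluster and in astrocytes, though *Gm28875* had only 3 and 2 UMIs in astrocytes.

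**Figure D5:**
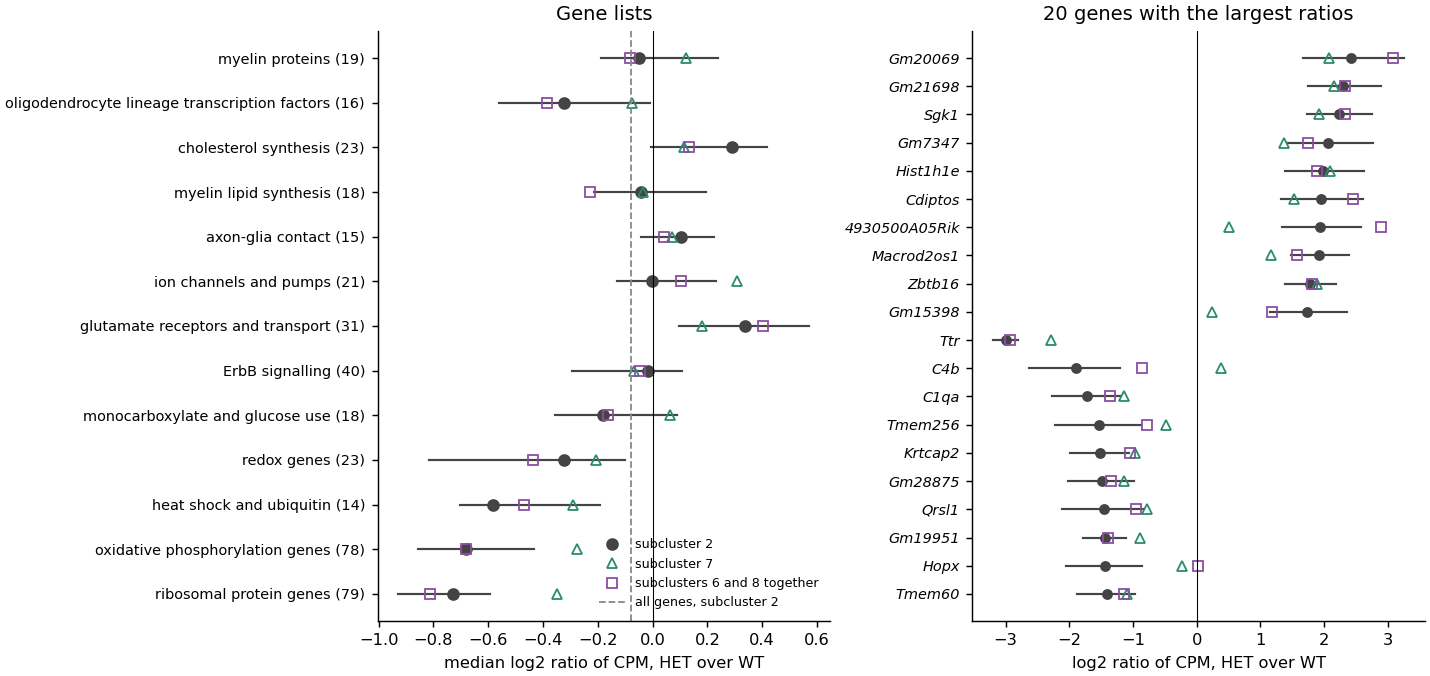
Left: median log2 ratio of CPM, HET over WT, of 13 gene lists in subcluster 2 (filled points, number of genes in brackets, lines from the lower to the upper quartile), subcluster 7 and subclusters 6 and 8; the dashed line is the median of all genes in subcluster 2, −0.08. Right: the 20 genes with the largest ratios, with exact 95% counting intervals for subcluster 2; ribosomal and oxidative phosphorylation genes lie furthest left of the dashed line, and *Ttr* is lower in all 3 groups.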

How the data were processed

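Single nuclei of dissected brainstem were profiled from 1 WT and 1 HET mouse, and the deposited files hold a matrix of raw UMI counts (25556 genes by 18281 nuclei) and a table of nuclei. The authors aligned reads to mm10 with Cell Ranger (version not stated) and used Seurat 4.1 to remove nuclei with few genes or many mitochondrial UMIs, to normalise counts with SCTransform and to cluster. The percent of mitochondrial, ribosomal and hemoglobin UMIs per nucleus and a doublet score from a caller that the authors did not name were used as deposited; every deposited nucleus is listed as a singlet. The strand setting of the counting is not given in the sources used here.

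Raw counts were summed over nuclei of a subcluster and library with Python 3.11.15, numpy 2.4.6, pandas 2.3.3 and scipy 1.17.1, and drawn with matplotlib 3.10.9. CPM had exact Poisson intervals, shares Clopper-Pearson intervals and log2 ratios the conditional Clopper-Pearson interval of 2 counts, all at 95%. Because each genotype was 1 library, no test across genes was run and a gene was counted as different past 2-fold. Ratios between subclusters needed at least 100 UMIs in the oligodendrocyte nuclei of each library for counts of genes, HET over WT ratios at least 100 UMIs over both libraries, and lists at least 20. Named genes were the 10 largest in each direction by these ratios, taking the smaller of both libraries between subclusters, besides genes of the lists or named by the study. The members and lists were chosen with earlier results of these data known. The ratio code was tested on simulated data. Gene positions came from GENCODE vM21 (GRCm38) and promoters from RefSeq (GRCm38.p6). Alternatives were totals without ribosomal genes, nuclei with at least 2000 UMIs, nuclei also labelled oligodendrocyte by the reference, nuclei without the 5% highest doublet scores, means over nuclei, thinning to 1000 UMIs, other minimum counts and centring. Metabolomic, proteomic, immunohistochemical and behavioural measurements were not analysed here. Values of some single genes are not reported here.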

Additional observations from a re-analysis of the deposited data

Results flagged for a closer look

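In 3 genes the HET over WT ratio had opposite signs in oligodendrocyte subclusters 2 and 7, by at least 0.5 (log2) in each. Their counting intervals lay on opposite sides of 0. A wider search had given 12 pairs of values of opposite sign with both intervals on 1 side of 0. Of these, 9 were under the size of 0.5 and are not listed. The number of pairs searched is not given here, and how many counting error alone would give was not tested. The difference itself was not tested, since each genotype is 1 library. *Slc4a4*, a sodium bicarbonate cotransporter gene and 1 of the 10 astrocyte markers, whose sum was 299 CPM in the WT and 371 CPM in the HET nuclei of subcluster 2, had a ratio of 0.87 (0.40 to 1.35) in subcluster 2, from 58 WT and 112 HET UMIs, and −1.73 (−2.10 to −1.37) in subcluster 7, from 128 and 127 UMIs. *Aldoc*, a glycolytic aldolase gene also known from astrocytes, had −0.59 (−0.89 to −0.29) in subcluster 2 and 0.67 (0.15 to 1.24) in subcluster 7. *Atp5j*, of the mitochondrial ATP synthase, had −0.51 (−0.80 to −0.23) in subcluster 2 and 0.55 (0.04 to 1.11) in subcluster 7. Subcluster 7 held 133 WT nuclei, and the median doublet score was 0.182 there against 0.116 in the WT nuclei of subcluster 2.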

How the results depend on the processing

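No paired analysis was possible because each genotype is 1 library, and for the same reason no replicate could be left out. For the 20 genes with the largest HET over WT ratios 180 of 180 values kept their sign under the alternatives run. So did 425 of 425 values for 27 genes of the comparison between subclusters, where values without a finite ratio were left out. Most of these genes were chosen for their large ratios and the alternatives reuse the same UMIs, so the kept signs are no independent check. The other single genes named were not run. Thinning every nucleus to 1000 UMIs leaves fewer genes with 100 UMIs: 28 genes were then past 2-fold higher and 37 lower in HETs by expected counts, and 38 and 60 in 1 seeded draw, against 82 and 135. Between subclusters 84 and 86 genes were past 2-fold by expected counts and 83 and 83 in the draw, against 194 and 184. A minimum of 50 UMIs gave 184 and 260 genes in HETs over WTs, and a minimum of 200 gave 37 and 49.

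The HET over WT median of the myelin proteins was −0.0727 without the highest doublet scores, −0.0774 as a mean over nuclei and by expected thinning, −0.1415 in the draw and 0.0279 after centring, which shifts all genes alike. That of the oxidative phosphorylation genes was −0.6250 in nuclei of at least 2000 UMIs, −0.7254 as a mean over nuclei and by expected thinning, −0.6036 after centring, −0.6083 with equal weights for the finer clusters and −0.7716 in the draw. That of the ribosomal genes was −0.6755, −0.8241 as a mean, −0.8251 by expected thinning, −0.6513 after centring and −0.6182 with equal weights. In nuclei of at least 2000 UMIs the share of oligodendrocyte nuclei was 46.9504% for WTs and 35.4264% for HETs. The myelin median between subclusters was −0.3721 (WT) and −0.2836 (HET) as a mean over nuclei and by expected thinning, −0.1650 and −0.2041 against subcluster 7 alone, and −0.2229 and −0.2518 in the draw. The late mature median ran from −0.37 to 0.25 (WT) and −0.03 to 0.28 (HET), so its sign was not stable. The comparison with subcluster 7 alone, the equal weights and the draw were chosen after seeing the data.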

Other observations

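*Sgk1* and *Zbtb16* are known to be induced by glucocorticoids, and a list of such genes, with both among its members, was written after their values were seen, so that its count, median and sum restate in part what prompted it. Of 9 measured genes 7 were higher in the HET members of oligodendrocyte subcluster 2, with a median log2 ratio of 0.87 beside −0.08 over all genes. *Per1*, a clock gene, had 8 WT and 43 HET UMIs (2.35, 1.24 to 3.65), and *Ddit4*, an inhibitor of mTOR signalling, 18 and 60 UMIs (1.66, 0.88 to 2.51). The chaperone gene *Fkbp5* had a ratio of 0.87 and *Tsc22d3*, a leucine zipper gene, 0.67, whereas *Cdkn1a*, a cell cycle inhibitor gene, had −0.84. The summed level was 291 CPM in WTs and 456 CPM in HETs. The median was 0.88 in subcluster 7 and 1.22 in subclusters 6 and 8, 0.42 in astrocytes and −0.23 in the largest neuron cluster. Differences between these cell groups were not tested.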
